A study of Rattus norvegicus with 20 samples.

Results

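The comparison described here is the interaction of maternal separation with age in isolated rat renal vasculature: the effect of separation in adults minus its effect in neonates, taken transcript by transcript. It used all 20 arrays of the series and 18511 of the 36685 transcripts in the deposited table, those that the array annotation ties to 1 gene symbol. The rats were male Wistar Kyoto rats. In the MatSep groups the pups were taken from the dam each day in early postnatal life, and the control groups were not handled. Vessels were collected at postnatal day 10 (P10), while separations were still going on, or at postnatal day 180 (P180), long after they had ended. Each of the 4 groups (control P10, MatSep P10, control P180 and MatSep P180) held 5 rats, and 1 array was hybridised per rat. The labels do not tie a rat to its litter, although the methods draw each group from several litters, and a finer sieve was used to collect the vessels of pups than those of adults, so preparation and age cannot be told apart. The vessels come from a sieving procedure with no sorting of cells, so more cells of a type and more RNA per cell cannot be told apart either. Against array medians of 6.00 to 6.18, endothelial markers averaged 8.89 to 9.66 and smooth muscle markers 8.60 to 11.13 on the log2 scale over the 20 arrays, and proximal tubule markers, from the tissue around the vessels, were also present at 10.85 to 11.99.

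Maternal separation is a model of early life stress. The wall of a renal artery holds an endothelium, a layer of smooth muscle cells with elastic sheets, and an outer adventitia of fibroblasts, collagen, resident macrophages, nerves and some fat. Collagens and elastic fibres are laid down mostly in early life and turn over slowly in adults, and the circadian clock, a loop of transcription factors that feeds back on its own genes, runs in vessels as in other tissues.

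Below, the P10 effect is the mean log2 intensity of MatSep P10 minus control P10, the P180 effect is the same at P180, and the interaction is the P180 effect minus the P10 effect. A negative interaction means that MatSep stood higher against its controls in neonates than in adults. All 3 are on the log2 scale, where a difference of 1 is a 2-fold change. The array numbers in the labels fall into 4 unbroken runs: 1 to 6 and 8 to 11 hold the adults, and 14 to 17 and 19 to 24 hold the neonates. Each run holds control and MatSep rats of 1 age, so the interaction was fitted with and without the runs as a block, and only the effect at 1 age can be read within a run.

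Without the block, 0 of 18511 transcripts had an interaction at an adjusted p under 0.05 in limma with Benjamini-Hochberg adjustment. The lowest adjusted p was 0.0754, for Ccr1, and 1674 transcripts (9.04%) lay at an unadjusted p under 0.05. With the runs as a block, 24 transcripts passed, 0.13% of those tested, with adjusted p-values from 0.0378 to 0.0459. Of these, 19 (0.103%) had a negative interaction and 5 (0.027%) a positive one, and 2242 transcripts (12.1%) lay at an unadjusted p under 0.05. The block left every estimate as it was and changed only the errors: over the 24, the median standard error of the interaction went from 0.165 to 0.137, and over all transcripts from 0.135 to 0.121.

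Selection on the interaction favours unlike effects, and all 24 had effects of opposite sign at the 2 ages, as did 9927 of the 18511 transcripts tested. The 19 with a negative interaction were higher in MatSep at P10 and lower at P180: Clec11a, Ssc5d, C7, Pdgfra, Runx2, Abca9, Dpep1, Cp, Olr1, Ccr1, Ccl2, Il1r1, Tnfsf13b, Fyb1, Arhgap15, Dtx4, Pipox, Bmal1 and RGD1563049. Pipox was dim, with a mean log2 of 4.85 over all arrays. The 5 with a positive interaction, Ciart, Slc4a1, Tspan8, Cnksr1 and Fam169a, were lower in MatSep at P10 and higher at P180. For 18 of the 24 both effects lay at an unadjusted p under 0.05 without the block, and for the other 6 (Bmal1, Ciart, Dtx4, Pdgfra, Tnfsf13b and Fyb1) only the P180 effect did. Choice on the difference of these same effects favours low p-values at each age, and the share over all transcripts with both was not counted. At P10 alone 9.67% of all transcripts reached that level, and at P180 2.65% did so higher and 3.11% lower in MatSep.

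**Figure D1:**
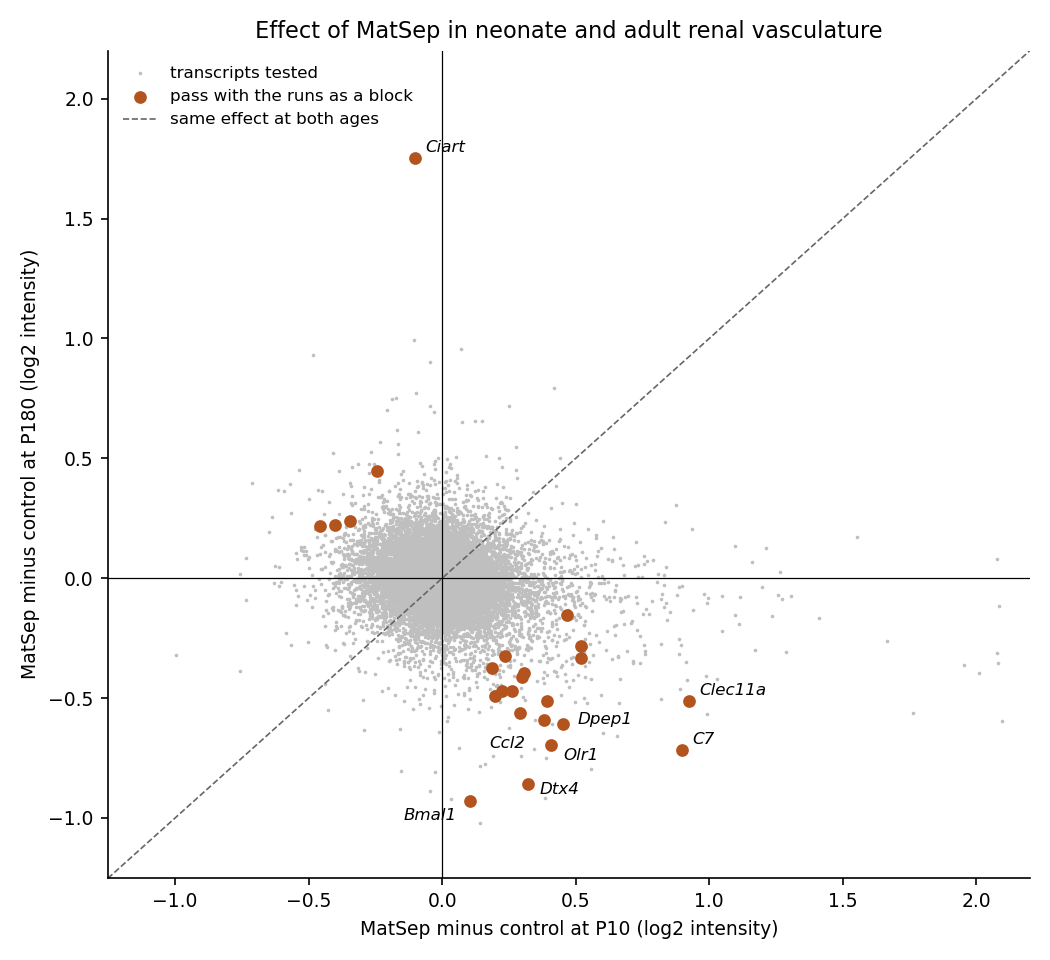
Effect of MatSep at P10 (x axis) against its effect at P180 (y axis), both in log2 intensity, for the 18511 transcripts tested (grey) and the 24 whose interaction passed with the runs as a block (brown; those over 0.95 in size are named). The 19 with a negative interaction lie to the lower right and the 5 with a positive interaction to the upper left, away from the dashed line of equal effects.

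The calls lay close under the threshold. All 24 kept their sign in each of the 20 fits that left out 1 array, with adjusted p-values of at most 0.133. The kept signs say little, since the 24 were chosen for interactions large against their errors and each fit shared all arrays but 1. With the runs as a block 12 of those fits called 0 transcripts and the others between 1 and 186. No transcript passed with the block when p-values were adjusted over all 36685 transcripts, or when the variances were not moderated across genes.

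C7 had the largest negative interaction of the 24. C7 encodes a component of the terminal complement complex and is made by fibroblasts and other stromal cells. In replicate order, C7 read 9.01, 9.72, 9.83, 9.61 and 9.09 in control P10 and 9.59, 10.09, 10.83, 10.50 and 10.73 in MatSep P10. It read 10.99, 10.61, 10.91, 10.26 and 10.35 in control P180 and 9.74, 9.93, 10.00, 10.13 and 9.73 in MatSep P180. In adults every MatSep array lay below every control array, while in neonates 1 MatSep array lay within the control range. C7 was 1.86-fold higher in MatSep at P10 and 1.65-fold lower at P180, an interaction of -1.62 (SE 0.26 with the runs, adjusted p = 0.0378). The P10 effect was 0.48 in arrays 14 to 17 and 1.18 in arrays 19 to 24, and the P180 effect was -0.95 in arrays 1 to 6 and -0.38 in arrays 8 to 11.

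Clec11a encodes a secreted growth factor of stromal cells that promotes bone formation and blood cell growth. It read 7.12, 7.98, 7.64, 7.30 and 6.85 in control P10 and 7.82, 8.31, 8.59, 8.43 and 8.37 in MatSep P10. At P180 it read 6.77, 6.77, 6.73, 6.20 and 6.23 in controls and 6.00, 5.99, 6.17, 5.85 and 6.11 in MatSep. The neonatal groups overlapped through 1 control and 1 MatSep array, and the adult groups did not overlap. The interaction was -1.44 (SE 0.25 with the runs, adjusted p = 0.0378), from 1.90-fold higher at P10 to 1.43-fold lower at P180. Its level was lower in adults than in neonates in both groups, with a control mean of 7.38 at P10 and 6.54 at P180.

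Pdgfra, the platelet-derived growth factor receptor that marks fibroblasts, changed less: its mean was 10.74 in control P10, 10.96 in MatSep P10, 9.04 in control P180 and 8.57 in MatSep P180. Its P180 controls read 9.26, 9.19, 9.40, 8.54 and 8.82 against 8.57, 8.63, 8.76, 8.53 and 8.36 in MatSep, so that the groups overlapped through control replicate 4. The Pdgfra interaction of -0.70 had an adjusted p of 0.196 without the block and 0.0459 with it. Ssc5d, a secreted scavenger receptor protein, had an interaction of -0.80, from 0.52 at P10 to -0.28 at P180. Runx2, the transcription factor of bone-forming cells, went from 0.30 to -0.41 and Abca9, of the lipid transporter family, from 0.29 to -0.56, both with P180 groups that did not overlap. Cp, the copper-carrying ferroxidase ceruloplasmin, went from 0.39 to -0.51. Dpep1, a dipeptidase of the cell surface that cleaves leukotriene D4, was 1.37-fold higher at P10 and 1.53-fold lower at P180, with adult groups that did not overlap.

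Matrix genes leaned the same way without passing. Their lists, like the others below, were chosen with earlier results of these data known, so they are described and not tested. Of the 17 measured fibrillar and other collagen chains, all 17 had a negative interaction, as did 49% of all transcripts (51% had a positive one), and 15 of them lay at an unadjusted p under 0.05 without the block, where 918 of all transcripts (4.96%) lay in that direction. None of the 17 passed adjustment over all transcripts in either fit. The median collagen interaction was -0.82 against 0.0037 over all transcripts, with a median P10 effect of 0.49 and a median P180 effect of -0.31. Col14a1 had the largest, -1.45 (P10 effect 1.03, P180 effect -0.42), followed by Col1a1 at -1.03, Col12a1 at -1.02 and Col1a2 at -1.01. The basement membrane chain Col4a2 was at -0.38 and Col18a1 at -0.02. The collagen medians were of 1 sign in each run: 0.29 in arrays 14 to 17, 0.59 in arrays 19 to 24, -0.44 in arrays 1 to 6 and -0.11 in arrays 8 to 11. The adult arrays still overlapped in the mean level of the list. MatSep P180 replicates 3 and 4 read 8.72 and 8.57, within the control P180 range of 8.47 to 8.92.

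Enzymes that crosslink collagen and elastin and the small proteoglycans that coat collagen fibrils showed a median interaction of -0.75. Most of it lay in the neonates, with a median P10 effect of 0.48 and a median P180 effect of -0.15, and the members named below fell further at P180 than that median. Of 14 measured members 13 lay below 0, all 13 at an unadjusted p under 0.05 without the block. Over all transcripts, 4.96% reached that level in that direction. Loxl1, a crosslinker of elastin, went from 0.60 at P10 to -0.65 at P180. Prelp, a small proteoglycan, went from 0.99 to -0.41, and its interaction of -1.39 had an adjusted p of 0.198 without the block and 0.153 with it. Loxl2 had adult groups that did not overlap, with a P180 effect of -0.54.

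All 13 measured genes of elastic fibres and microfibrils also had a negative interaction, with a median of -0.44. Without the block 6 of them lay at an unadjusted p under 0.05, against 4.96% of all transcripts in that direction. Mfap5, a microfibril protein, had the largest of the list. It read 5.94, 8.27, 8.17, 6.60 and 6.27 in control P10 and 8.43, 9.95, 9.31, 8.87 and 9.07 in MatSep P10. In adults it stayed between 5.65 and 6.66 in controls and between 5.62 and 6.15 in MatSep. The neonatal groups did not overlap, although the P10 controls spread widely, and MatSep was 4.22-fold higher there. The Mfap5 interaction of -2.39 (95% interval -3.48 to -1.29 without the block) had an adjusted p of 0.143 without and 0.106 with the runs. Eln, elastin itself, was at 0.35 at P10 and -0.24 at P180, with an unadjusted p of 0.121 for the interaction.

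**Figure D2:**
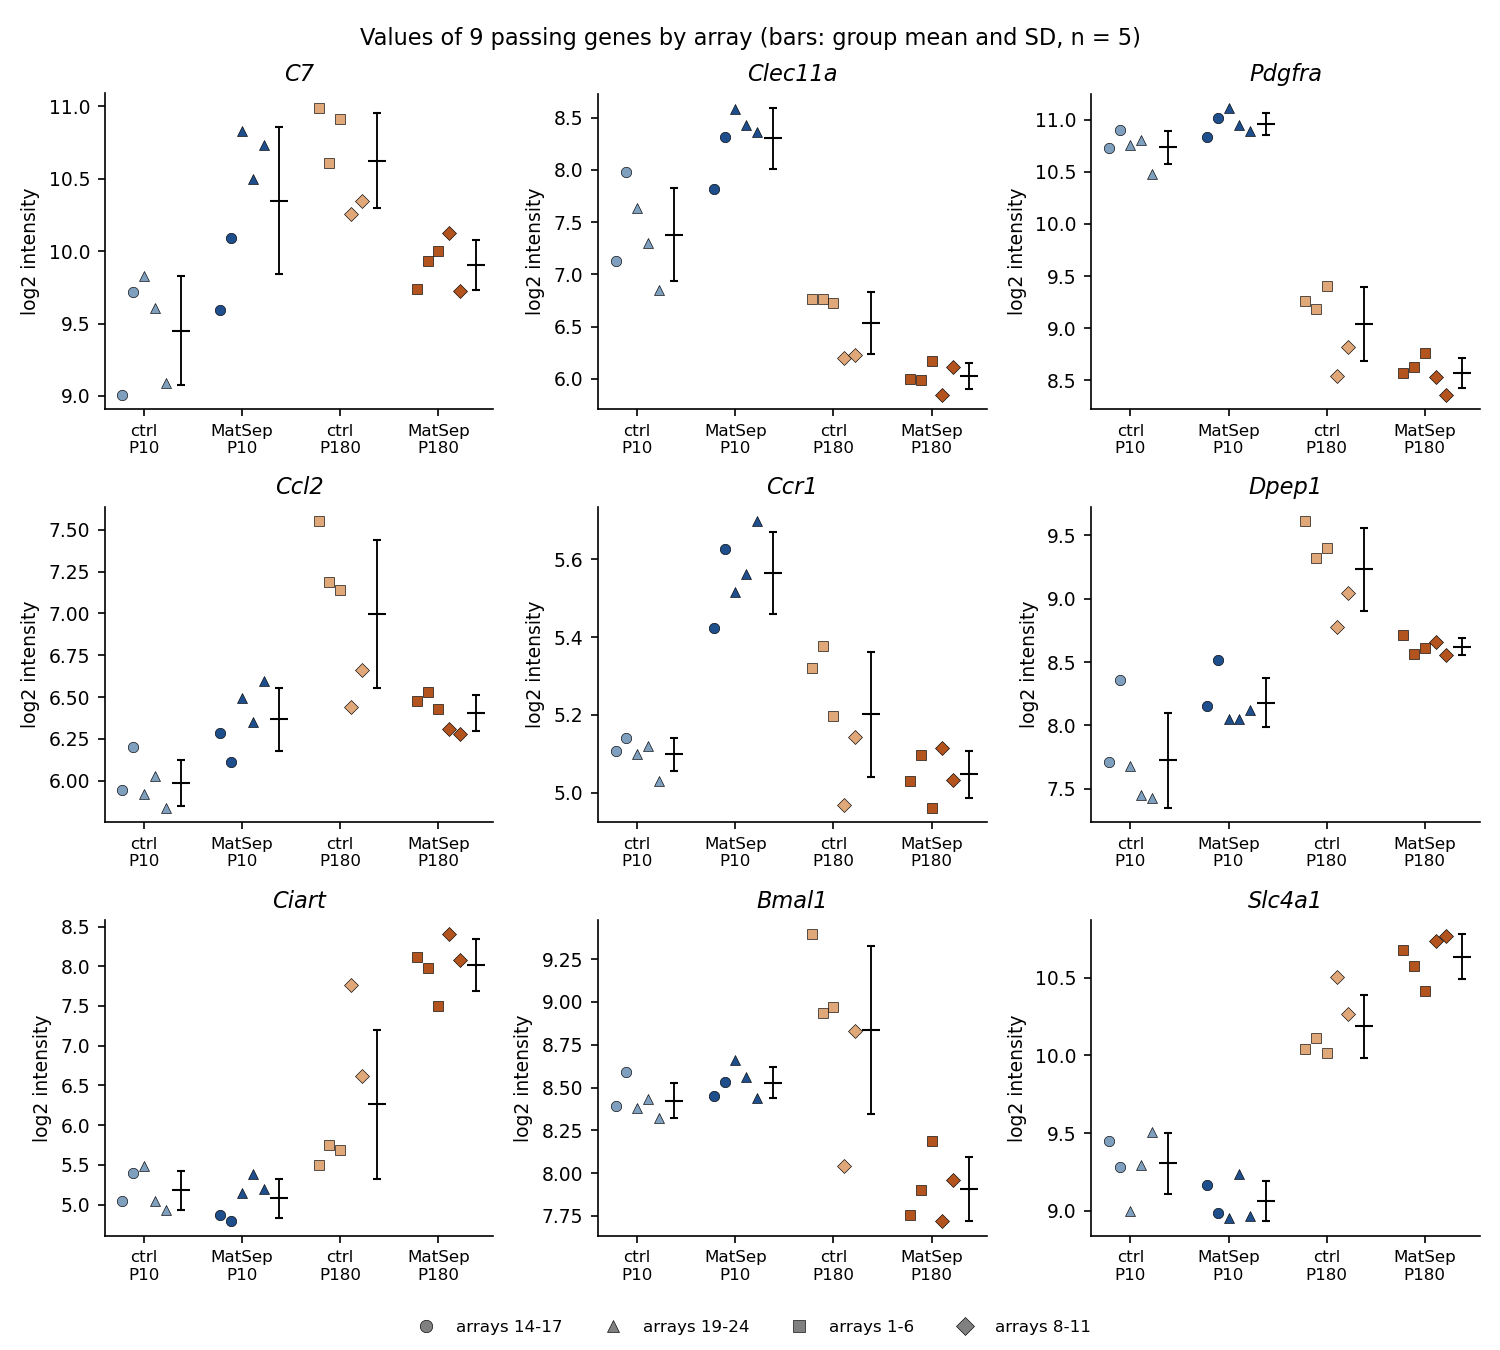
Log2 intensity (y axis) of 9 genes whose interaction passed with the runs as a block, 1 point per rat in replicate order, by group (x axis) with the run of array numbers as the symbol and the mean and SD of each group (n = 5) as bars. C7, Clec11a, Pdgfra, Ccl2, Ccr1 and Dpep1 were higher in MatSep at P10 and lower at P180, and Ciart and Slc4a1 were higher in MatSep at P180. In Pdgfra, Ccl2, Ccr1, Ciart, Bmal1 and Slc4a1 the fourth P180 control lies among the MatSep P180 arrays.

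Ccr1 and Ccl2 were the members of the macrophage and of the chemokine list that passed. Ccr1, the chemokine receptor of monocytes and neutrophils, had the lowest p-value of all transcripts. It read 5.11, 5.14, 5.10, 5.12 and 5.03 in control P10 and 5.42, 5.63, 5.52, 5.56 and 5.70 in MatSep P10, with no overlap. At P180 it read 5.32, 5.38, 5.20, 4.97 and 5.14 in controls and 5.03, 5.10, 4.96, 5.11 and 5.03 in MatSep, which overlapped. Its P10 effect of 0.47 passed on its own (adjusted p = 0.0218 without the block), whereas the P180 effect of -0.15 did not (adjusted p = 0.818) and was -0.27 in arrays 1 to 6 and 0.02 in arrays 8 to 11. All these values lie near the dim end of the scale, below the array medians of 6.00 to 6.18.

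Ccl2, the chemokine that draws monocytes into tissue, read 5.94, 6.20, 5.92, 6.03 and 5.84 in control P10 and 6.28, 6.11, 6.50, 6.35 and 6.59 in MatSep P10. It read 7.55, 7.19, 7.14, 6.44 and 6.66 in control P180 and 6.48, 6.53, 6.43, 6.31 and 6.28 in MatSep P180. The groups overlapped at both ages, by 1 array of each group at P10 and through control replicate 4 at P180. Ccl2 was 1.30-fold higher in MatSep at P10 and 1.51-fold lower at P180, an interaction of -0.97 (SE 0.16 with the runs, adjusted p = 0.0378).

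Olr1, the receptor for oxidised low density lipoprotein, went from 0.41 at P10 to -0.70 at P180, and its adult groups did not overlap. Il1r1, the signalling receptor of interleukin 1, went from 0.31 to -0.40. The 5 adult controls of Il1r1 lay between 7.95 and 8.12 and the 5 MatSep arrays between 7.46 and 7.74. Tnfsf13b, a survival factor of B cells, and Fyb1 and Arhgap15, signalling proteins of leukocytes, had interactions of -0.69, -0.56 and -0.73. These last 3 genes were far dimmer in neonates than in adults, with control means of 4.94, 5.56 and 5.41 at P10 and 7.27, 8.22 and 8.15 at P180.

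In the wider lists, 17 of 18 measured chemokines and cytokines had a negative interaction, and Ccl2 alone passed. Without the block 8 of the 17 lay at an unadjusted p under 0.05, against 4.96% of all transcripts in that direction. Ccl21, which guides lymphocytes and dendritic cells, was at 0.99 at P10 and -0.56 at P180 (interaction -1.56, adjusted p = 0.161 without and 0.075 with the runs), and Cxcl12 was at 0.23 and -0.33. The exception was Il33, at 0.16. Of 14 measured complement genes 12 lay below 0 and C7 alone passed. The serine proteases of the first complement complex went with it: C1s had an interaction of -1.32 and C1r of -0.93, while C3 was at -0.21 and C1qa at 0.02. Of 16 macrophage and monocyte markers 14 lay below 0, with a median of -0.44. Ccr2, the receptor for Ccl2, was at -0.95 and Ctss, a lysosomal protease, at -0.64, while Itgam was at 0.33. The 9 lymphocyte markers had a median of 0.03.

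The clock genes gave the other pattern, an effect in adults with little at P10. Bmal1, which with its partner Clock or Npas2 drives the loop, read 9.40, 8.94, 8.97, 8.04 and 8.83 in control P180 and 7.76, 7.90, 8.19, 7.72 and 7.96 in MatSep P180. In neonates it read between 8.32 and 8.59 in controls and between 8.44 and 8.66 in MatSep. The adult groups would not have overlapped but for control replicate 4, and the neonatal groups lay over each other. Bmal1 was 1.90-fold lower in adult MatSep (adjusted p = 0.0415 without the block), and its interaction was -1.03 (SE 0.20 with the runs, adjusted p = 0.0459).

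Ciart, a repressor of Bmal1 and Clock, moved the opposite way and had the largest positive interaction of all transcripts. It read 5.49, 5.75, 5.69, 7.76 and 6.62 in control P180 and 8.12, 7.98, 7.50, 8.40 and 8.08 in MatSep P180. At P10 all 10 arrays lay between 4.79 and 5.49, near the dim end of the scale and below the array medians of 6.00 to 6.18. That limits what its small P10 effect can show. Control replicate 4 again lay within the MatSep range. The interaction was 1.85 (SE 0.32 with the runs, adjusted p = 0.0378), with a P180 effect of 2.22 in arrays 1 to 6 and 1.05 in arrays 8 to 11. It was 2.23 without control P180 replicate 4 and 1.66 without control P180 replicate 1, the ends of its range when 1 array was left out.

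The promoters of both genes are shown because 2 known arms of the loop act through short sites there: Bmal1 with its partner binds the E-box CACGTG, and the Ror and Rev-erb receptors bind elements with the core TAGGTCA. Each window runs from 250 bases before the RefSeq start to 50 after it, on the GRCr8 build, 5′ to 3′ on the strand of the gene. Bmal1 lies at chr1:176766078-176766377 on the plus strand, with its single TAGGTCA in capitals, starting at base 235 of the window. Ciart lies at chr2:186112197-186112496 on the minus strand, with its 3 copies of CACGTG in capitals, starting at bases 158, 216 and 230, so that all 4 matches lie ahead of the gene's start.
Bmal1: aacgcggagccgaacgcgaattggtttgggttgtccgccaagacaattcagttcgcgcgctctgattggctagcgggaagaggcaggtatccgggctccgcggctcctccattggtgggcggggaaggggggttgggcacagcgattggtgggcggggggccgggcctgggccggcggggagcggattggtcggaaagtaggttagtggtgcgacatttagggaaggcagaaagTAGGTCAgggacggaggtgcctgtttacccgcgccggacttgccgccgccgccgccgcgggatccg
Ciart: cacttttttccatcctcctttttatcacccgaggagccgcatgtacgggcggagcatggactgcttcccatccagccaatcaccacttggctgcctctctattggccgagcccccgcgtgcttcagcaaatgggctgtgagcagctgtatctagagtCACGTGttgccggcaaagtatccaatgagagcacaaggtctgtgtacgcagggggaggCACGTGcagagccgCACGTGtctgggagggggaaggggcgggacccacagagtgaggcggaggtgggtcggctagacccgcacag
Searched on both strands, CACGTG was in 6.42% of the 33469 RefSeq promoter windows of this length and TAGGTCA in 2.63%, and 19 windows held CACGTG 3 or more times. Of the 16 clock genes with a window, 5 held CACGTG (Bhlhe40, Bhlhe41, Ciart, Nr1d1 and Tef) and Bmal1 alone held TAGGTCA. Of the 21 passing genes with a window, Arhgap15, Ciart and Cnksr1 held CACGTG and Abca9 and Bmal1 held TAGGTCA. These are exact matches of letters and not measured binding. Near matches, such as the taggtta further upstream in the Bmal1 window, were not searched or marked.

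The 17 measured clock genes split by their place in the loop. At P180, 9 were higher and 4 lower in MatSep at an unadjusted p under 0.05, against 2.65% and 3.11% of all transcripts. At P10, where 9.67% of all transcripts reached that level in either direction, Clock alone did, at 0.17. Genes of the positive arm and the E4bp4 repressor were lower in adult MatSep: Npas2 had a P180 effect of -0.71, Nfil3 of -0.33 and Clock of -0.20. Genes of the negative and output arms were higher: Usp2 by 0.99, Dbp by 0.96, Per1 by 0.90, Per2 by 0.72, Tef by 0.66, Bhlhe41 by 0.51 and Per3 by 0.49. The P180 effect was larger in arrays 1 to 6 than in arrays 8 to 11 for each of these 7 genes: 1.5 against -0.00052 for Per1, 1.02 against 0.27 for Per2, 1.32 against 0.50 for Usp2 and 1.24 against 0.54 for Dbp. Of the 7, Dbp (adjusted p = 0.0415) and Tef (adjusted p = 0.045) passed at P180 without the block. Their P10 effects were small: -0.11 for Usp2, 0.07 for Dbp, -0.05 for Per1, -0.04 for Per2 and 0.12 for Tef. Yet none of these interactions passed. The nearest, Npas2 at -0.77 and Usp2 at 1.10, had adjusted p-values of 0.196 and 0.174 without the block and 0.113 and 0.114 with it.

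Other clock genes had interactions near 0. Nr1d1, which encodes the Rev-erb repressor of Bmal1, had effects of 0.21 at P10 and 0.17 at P180, an interaction of -0.04 (95% interval -0.36 to 0.29 without the block). Rora was at -0.05 and Cry1 at 0.08. Usp2 read 7.74, 7.81, 8.13, 9.11 and 8.12 in control P180, and Per2 read 7.89, 7.93, 8.19, 9.13 and 8.20. The P180 MatSep arrays read 9.51, 9.33, 8.80, 9.31 and 8.94 for Usp2 and 9.07, 9.06, 8.93, 9.05 and 8.83 for Per2. Control replicate 4 thus lay within the MatSep range for Usp2 and above all 5 MatSep arrays for Per2. Clock transcripts cycle over the day, and the hour at which each rat was killed is not given in the sources used here.

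**Figure D3:**
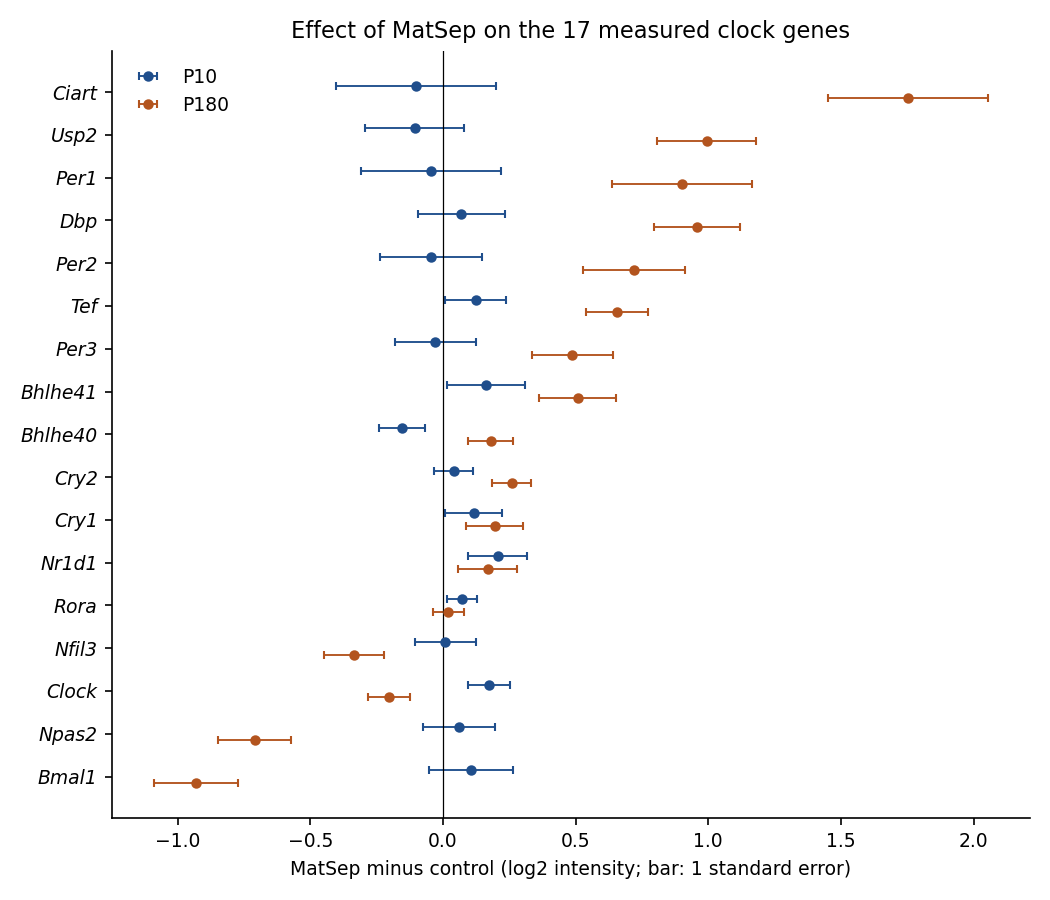
MatSep minus control (x axis, log2 intensity) at P10 (blue) and P180 (brown) for the 17 measured clock genes (y axis), with bars of 1 standard error from the fit without the block. At P10 the effects lie between -0.15 and 0.21. At P180 they run from -0.93 for Bmal1 to 1.75 for Ciart.

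Besides Ciart, 4 genes had a positive interaction, with means lower in neonatal and higher in adult MatSep. Slc4a1 encodes the anion exchanger of red cells and of acid-secreting intercalated cells of the collecting duct. It read 9.45, 9.28, 9.0, 9.29 and 9.50 in control P10 and 9.16, 8.99, 8.96, 9.24 and 8.97 in MatSep P10. At P180 it read 10.04, 10.11, 10.02, 10.50 and 10.26 in controls and 10.67, 10.58, 10.41, 10.74 and 10.77 in MatSep. The groups overlapped at both ages, at P180 through control replicate 4 alone. The interaction was 0.69 (SE 0.13 with the runs, adjusted p = 0.0459), and the effect kept its sign in both runs of each age.

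All 6 measured intercalated cell markers had a positive interaction, with a median of 0.36: Slc26a4, the chloride and bicarbonate exchanger pendrin, was at 0.74 and the proton pump subunit Atp6v1g3 at 0.40. The other measured red cell markers did not follow Slc4a1, with Epb42 at 0.03 and Ahsp at -0.11. Of 11 loop and distal tubule markers 10 lay above 0, with a median of 0.23. Of these 11, 3 lay at an unadjusted p under 0.05 without the block, against 4.08% of all transcripts in that direction. Aqp2, the water channel of the collecting duct, went from -0.41 at P10 to 0.52 at P180, and Scnn1g, part of the sodium channel ENaC, from -0.45 to 0.36. The 10 proximal tubule markers had a median of 0.09.

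The other 3 were Tspan8, a tetraspanin of epithelial cells, at 0.67, Fam169a at 0.62 and Cnksr1, a scaffold of Ras signalling, at 0.58. At P10 the Cnksr1 and Fam169a groups did not overlap. In all, 4 of the 24 had groups that did not overlap at P10 and 9 at P180, where 1.67% and 0.81% of all transcripts did, and the choice of the 24 used the same values. Of the other transcripts nearest to passing on the positive side, Lhx3 was at 0.65, Nat8f5 at 0.79 and Dsg2, a desmosomal cadherin of epithelia, at 0.57, with adjusted p-values with the runs of 0.063, 0.052 and 0.051.

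Cell type markers moved with these results, and their part in them was not tested. All 14 adipocyte markers had a negative interaction, with a median of -1.20, and none passed. Without the block 11 of them lay at an unadjusted p under 0.05, against 4.96% of all transcripts in that direction. Fabp4, the fatty acid carrier of adipocytes, went from 2.01 at P10 to -0.39 at P180, Plin1, which coats lipid droplets, from 1.76 to -0.56, and Ucp1, which uncouples brown fat mitochondria, from 2.10 to -0.59. The mean log2 level of the 14 ran from 6.42 to 8.99 in control P10, 7.91 to 9.37 in MatSep P10, 6.95 to 7.94 in control P180 and 6.98 to 7.39 in MatSep P180. The P10 controls thus spanned nearly the whole range of the neonates, with replicate 2 at the top.

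All 11 measured smooth muscle markers had a negative interaction too. Of these, Actg2 alone lay at an unadjusted p under 0.05 without the block, against 4.96% of all transcripts in that direction. Their median was -0.58, with a median P10 effect of 0.51 and a median P180 effect of -0.08. Their mean level ran from 8.60 to 10.31 in control P10, 9.40 to 10.44 in MatSep P10, 10.30 to 10.72 in control P180 and 10.15 to 11.13 in MatSep P180. Fibroblast markers had a median of -0.50 with 12 of 14 below 0. Their mean level ran from 7.61 to 8.18 in control P10, 8.08 to 8.47 in MatSep P10, 7.67 to 7.93 in control P180 and 7.59 to 7.80 in MatSep P180. Dpt, a collagen-binding protein of the fibroblast matrix, was at -1.17 and Tcf21 at -0.84, while Thy1 was at 0.13.

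Macrophage and monocyte markers averaged 6.49 to 6.86 in control P10, 6.71 to 7.06 in MatSep P10, 7.86 to 7.93 in control P180 and 7.76 to 7.90 in MatSep P180. Loop and distal tubule markers averaged 9.94 to 10.33, 9.70 to 10.22, 9.68 to 9.80 and 9.61 to 10.01 in the same order of groups. Intercalated cell markers averaged 8.75 to 9.56, 8.66 to 9.24, 9.32 to 9.70 and 9.24 to 10.02.

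Endothelial markers did not lean either way: 9 of 15 lay below 0, none at an unadjusted p under 0.05, with a median of -0.02 and members from -0.41 (Sox18) to 0.32 (Cldn5). Of 24 angiogenic ligands and receptors 16 lay below 0, with a median of -0.07. Vegfd, a lymphatic growth factor, stood apart from that median at -0.98, with adult groups that did not overlap, and Nrp2, a co-receptor for vascular growth factors, was at -0.74. The 11 measured renin angiotensin genes had a median of -0.03, and Agtr2, the type 2 angiotensin receptor, was at -0.89 from a P10 effect of 0.82. Corticosteroid genes had a median of 0.10 and cell cycle genes of 0.05. The medians of the remaining lists were -0.18 for podocyte and for pericyte and mesangial markers, -0.17 for interferon-stimulated genes, -0.10 for immediate early genes, 0.03 for mast cell and for red cell markers and 0.11 for nerve and glia markers, and mesothelial markers lay at -0.0045. Secreted Wnt modulators had a median of -0.07. Of the 9, 4 had a negative interaction at an unadjusted p under 0.05 without the block, against 4.96% of all transcripts. These 4 were Sfrp4 at -1.38, Sfrp1 at -1.04, Frzb at -0.60 and Dkk3 at -0.47.

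**Figure D4:**
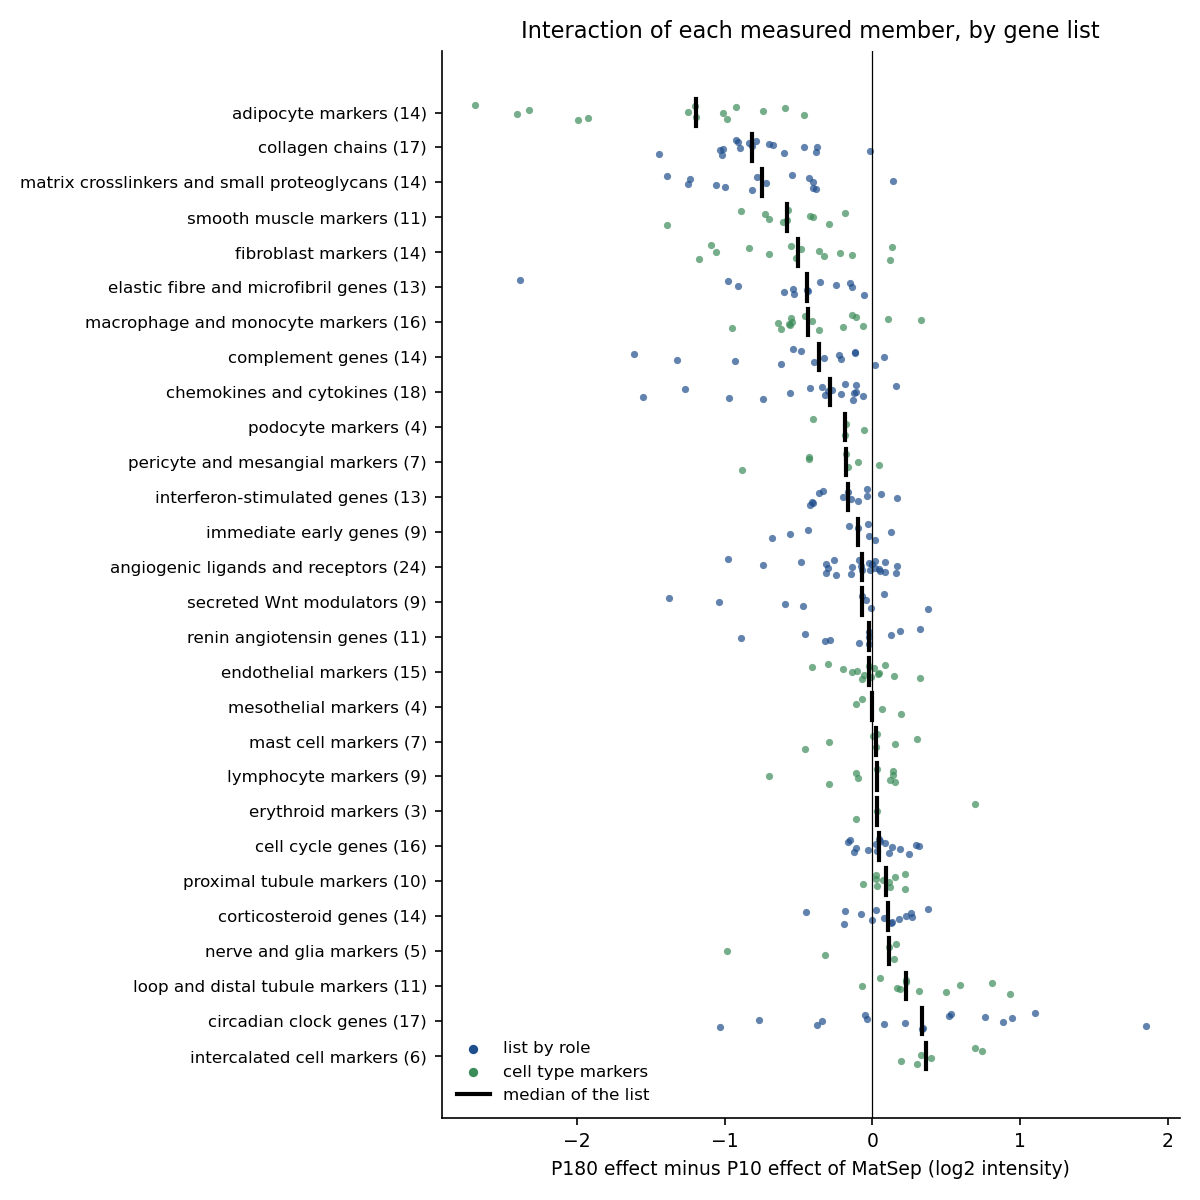
Interaction (x axis, P180 effect minus P10 effect in log2 intensity) of every measured member of 28 gene lists (y axis, number of measured members in brackets), with lists by role in blue, cell type markers in green and the median of each list as a black bar. Adipocyte, collagen and crosslinker lists lie to the left, at medians of -1.20, -0.82 and -0.75, endothelial markers lie near 0, and intercalated cell markers lie to the right at 0.36.

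A transcript that passed at 1 age was not thereby shown to differ between ages. At P10 without the block 3 transcripts passed (0.0162%), all higher in MatSep: Ccr1, Sfrp4 and Tnxa-ps1. Sfrp4, a secreted Wnt antagonist, was 2.93-fold higher in neonatal MatSep, but its interaction of -1.38 had an adjusted p of 0.179 without the block and 0.114 with it. At P180, 6 transcripts passed (0.0324%): Ciart, Dbp and Tef higher, and Bmal1, Nav3 and RT1-CE13 lower. RT1-CE13 belongs to a family of near-identical class I histocompatibility genes that array probes may not tell apart. RT1-CE13 was 1.89-fold lower in adult MatSep with a P10 effect of 0.03, and its interaction had an adjusted p of 0.067 with the runs. Its P10 means were dim, at 4.35 in controls and 4.38 in MatSep. Of these 9 transcripts, Ccr1, Ciart and Bmal1 also passed for the interaction with the runs. With the runs as a block, 1 of the 24 passed at P10 and 5 at P180, where 0.0108% and 0.0864% of all transcripts did.

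Within runs, 22 of the 24 had P10 effects of 1 sign in both neonatal runs and 23 had P180 effects of 1 sign in both adult runs. The 24 were chosen on these same values with the runs in the fit, which favours like effects across runs. These counts are therefore no separate evidence, and the share over all transcripts was not counted. The size was uneven: 19 of the 24 had the larger P180 effect in arrays 1 to 6 and 20 the larger P10 effect in arrays 19 to 24. In arrays 8 to 11, which held control replicates 4 and 5, control replicate 4 was the P180 control that lay furthest toward MatSep in 16 of the 24. The P180 groups of 9 of the 24 did not overlap, against 0.81% of all transcripts. Without control replicate 4, set aside after the values were seen, the groups of 18 of the 24 would not overlap. Leaving out an array can only raise that count, and this one was often nearest to MatSep, so the rise is no evidence. The share of all transcripts without that array was not counted, nor were the shares beside the 19, 20 and 16 above. Between the runs themselves, 3539 transcripts differed at P10 and 48 at P180 at an adjusted p under 0.05.

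**Figure D5:**
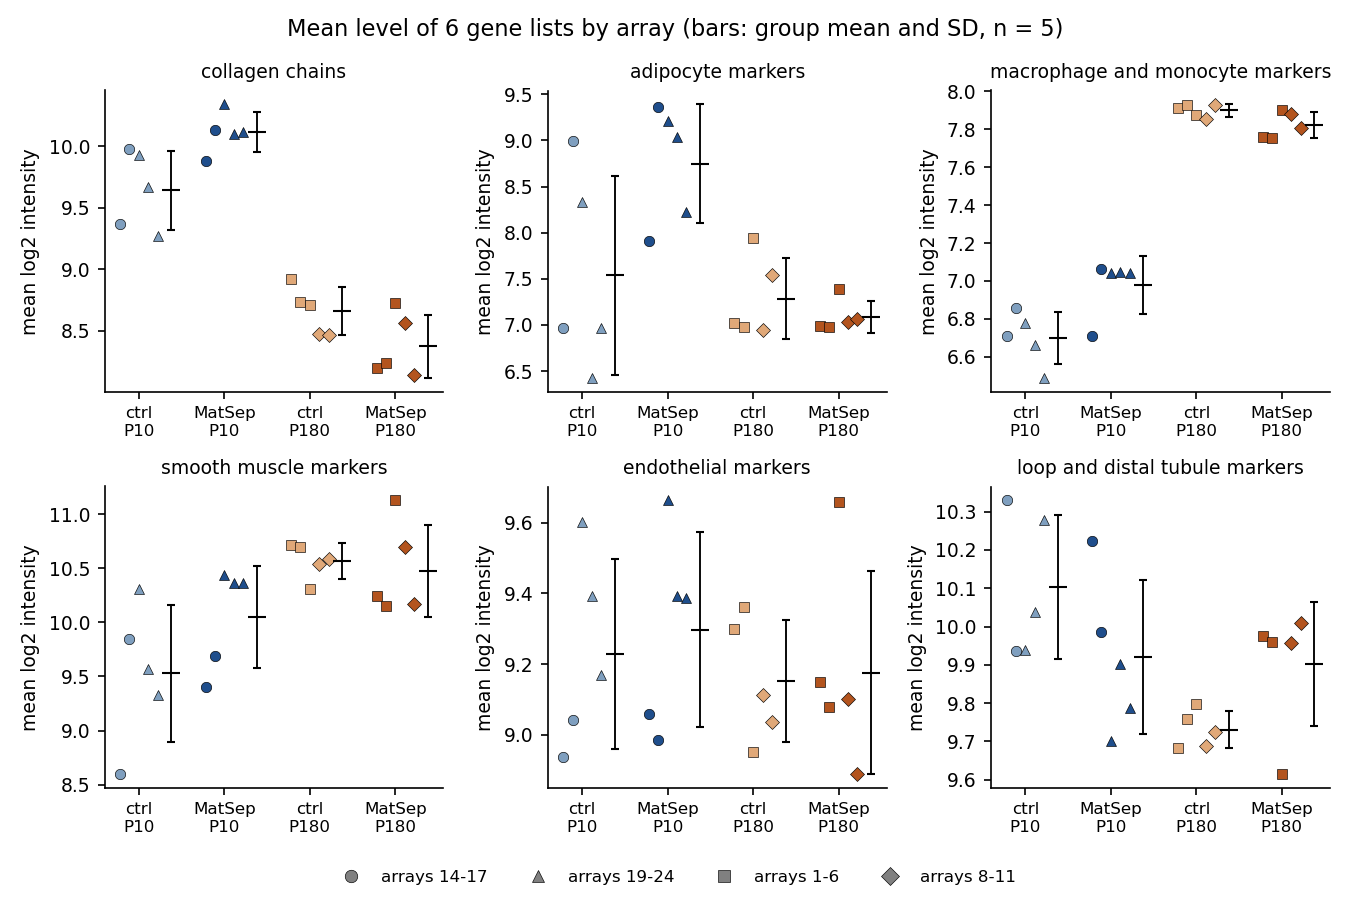
Mean log2 intensity (y axis) of the measured members of 6 gene lists, 1 point per rat by group (x axis), with the run of array numbers as the symbol and the mean and SD of each group (n = 5) as bars. Collagen chains averaged 9.27 to 9.98 in control P10 and 9.88 to 10.34 in MatSep P10, adipocyte markers spread from 6.42 to 8.99 within control P10, and 1 MatSep P180 array stands apart from its group in the adipocyte, smooth muscle, endothelial and distal tubule panels.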

How the data were processed

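Isolated renal vessels of 20 rats were hybridised to RaGene 2.0 ST arrays. The authors deposited 1 table of gene-level intensities on a linear scale; the labels name RMA and Partek without versions, and the workbook describes quantile normalisation. Array medians ran from 6.00 to 6.18 on the log2 scale taken here, and the number of arrays limits the precision. Of 36685 transcripts, 18511 had 1 gene symbol, 575 several and 17599 none, and 291 genes had more than 1 transcript, of which the brightest is given. Columns of the authors' own comparisons were not used.

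The 4 group means were fitted in limma 3.58.1 (R 4.3.3, lmFit and eBayes) to all 20 arrays, without a block (16 residual degrees of freedom) and with the runs of array numbers as a block (14). P-values were two-sided and Benjamini-Hochberg adjusted over all 18511 transcripts. Named genes are the 12 lowest p-values in each direction, every transcript that passed, the clock genes, and the 3 lowest of each other list, with others chosen after their values were seen. Members and lists were chosen with earlier results of these data known. The script was tested on simulated data. Promoters came from RefSeq (GRCr8). The methods draw each group from several litters, but the labels tie no rat to one, so litter could not enter the fit.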

Additional observations from a re-analysis of the deposited data

Results flagged for a closer look

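By the interaction test with the runs as a block, the effect of MatSep differed between the ages in 24 transcripts. Without the block the test called 0, and with it 12 of the 20 fits that left out 1 array called 0. The interactions were -0.62 for Ccr1, -1.44 for Clec11a, -0.80 for Ssc5d, -1.62 for C7, -1.10 for Olr1, -0.70 for Il1r1, -0.85 for RGD1563049, -0.86 for Abca9, -0.71 for Runx2, 0.67 for Tspan8, -1.06 for Dpep1 and 0.62 for Fam169a. They were -0.73 for Arhgap15, 0.69 for Slc4a1, -1.18 for Dtx4, 0.58 for Cnksr1, -1.03 for Bmal1, -0.97 for Ccl2, -0.56 for Pipox, 1.85 for Ciart, -0.91 for Cp, -0.70 for Pdgfra, -0.69 for Tnfsf13b and -0.56 for Fyb1.

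Among 320 sets of 5 values (genes and list means in each group), 15 had 1 array far from the other 4 by Dixon's test, where chance gives about 1 in 20. The 15 are thus no more than that share. Control P180 replicate 4 gave 5 of the 15, all clock genes: Clock at 10.20 (others 10.56 to 10.68), Cry2 at 9.10 (8.86 to 8.92), Per2 at 9.13 (7.89 to 8.20), Per3 at 9.22 (8.21 to 8.43) and Usp2 at 9.11 (7.74 to 8.13). All measured clock genes were among the sets, and values of linked genes on 1 array are not independent. MatSep P180 replicate 5 was low in Dbp at 11.37 (11.66 to 11.76) and Per1 at 8.52 (9.39 to 9.72). MatSep P180 replicate 3 was high in adipocyte markers at 7.39 (6.98 to 7.07) and low in loop and distal tubule markers at 9.61 (9.96 to 10.01).

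In neonates, MatSep P10 replicate 2 was high in Dpep1 at 8.51 (8.05 to 8.16), MatSep P10 replicate 1 low in macrophage and monocyte markers at 6.71 (7.04 to 7.06), and control P10 replicate 4 low in corticosteroid genes at 8.98 (9.03 to 9.05). In adult controls, replicate 2 was low in Elmod3 at 6.72 (7.06 to 7.10), replicate 5 low in Tnxa-ps1 at 7.41 (7.80 to 7.91) and replicate 1 high in podocyte markers at 10.05 (9.51 to 9.65).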

How the results depend on the processing

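Without a block the interaction called 0 transcripts, also after further quantile normalisation, median centring, removal of dim transcripts (mean log2 under 5), adjustment over the whole table, gene means, an intensity trend with robust prior, unmoderated variances and the second copy of the intensities. It called 603 at an adjusted p under 0.4, 128 with array weights, 24 with the runs as a fixed block, 10 with them as a random block (all with a negative interaction, and all among the 24) and 20 with a replicate block (7 of them among the 24). The replicate block had 1 term per replicate number, shared by both ages, so it did not pair rats within an age. With the runs as a block, the 24 calls became 2032 at an adjusted p under 0.4, 213 with array weights, 0 with adjustment over the whole table and 0 without moderation, and lay between 21 and 34 under the other settings. The effect at P10 called 3, 2 with the runs as a block, 13 with the replicate block, 1 within arrays 14 to 17 and 0 within arrays 19 to 24. The effect at P180 called 6, 16 with the runs as a block, 6 with the replicate block, 2 within arrays 1 to 6 and 0 within arrays 8 to 11.

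Nothing in the labels says that a replicate number marks a shared litter or day. Deviations of same-numbered control and MatSep arrays correlated from 0.0924 to 0.615 at P10 and from -0.211 to 0.214 at P180, and 4 of 5 controls at P10 and 2 of 5 at P180 correlated best with their own number. This is a hint of pairing at P10 from the data, not from the design, and same-numbered arrays also share a run.

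Leaving out 1 array gave 0 to 52 calls without a block, 0 to 186 with the runs, 0 to 153 at P10 and 0 to 38 at P180. Without control P10 replicate 2 the counts were 52 and 186, without control P180 replicate 4 they were 42 and 69, and without MatSep P10 replicate 1 they were 12 and 64, without and with the runs, and all 24 then passed with the runs. With the runs, 42 passed without MatSep P180 replicate 4, 19 without replicate 3, 10 without replicate 5 and 1 without replicate 1 of that group, and 7 without control P10 replicate 3. Each of the 24 passed in 3 to 7 of the 20 fits.

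The sign turned for Epb42 under quantile normalisation (-0.027) and for Nr1d1 with array weights (0.034). When 1 array was left out, the interaction crossed 0 for Epb42 (-0.063 to 0.16), Nr1d1 (-0.12 to 0.043), Krt19 (-0.030 to 0.38), Ahsp (-0.22 to 0.0082), Cry1 (-0.0057 to 0.14), Lrrn4 (-0.00010 to 0.12) and Msln (-0.25 to 0.046). Centring moved the median interaction of all transcripts from 0.0037 to 0.039. The cause of these changes was not tested.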
